A study of Mus musculus with 46 samples.

Results

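The 10 endocannabinoid system genes described here were followed across 4 diets in the cecum and liver of mice. They comprised the receptors Cnr1, Cnr2 and Gpr55, the synthesis enzymes Napepld, Dagla and Daglb, and the breakdown enzymes Faah, Mgll, Naaa and Abhd6. The genes were found by matching the sequence accessions printed beside each array feature to gene symbols, which gave 10 of 20887 matched genes and 14 of 55681 probes. The genes were listed by their known roles, with earlier results of these data known.

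Gene expression was measured on 46 one-colour Agilent mouse arrays in a test of how dietary fiber alters the host response to a high fat diet. All groups were male C57BL/6 mice, 12 weeks old at the start, single housed, fed for 8 weeks and sampled at 20 weeks of age. HFD was a high fat diet with 45% of energy from fat and LFD a low fat diet with 10%. In HFD + inulin, inulin (a fermentable fructose polymer) took the place of carbohydrate amounting to 10% by weight, of which 5% was corn starch and 5% cellulose. In HFD + inul PB, hereafter also the ester diet, that place was taken by inulin carrying short chain fatty acids in ester linkage, with the propionate ester and the butyrate ester at 5% each. The cecum had 6 arrays each of HFD and HFD + inulin and 5 each of LFD and HFD + inul PB, and the liver had 6 of each, drawn from 12 mice per diet. The study left out 1 HFD + inul PB array and 1 LFD sample of the cecum for technical reasons. Which cecum and liver arrays came from one mouse was not given in the labels.

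Endocannabinoids are lipid messengers made on demand from membrane phospholipids. Anandamide and the related N-acylethanolamines are released by Napepld and split by Faah and Naaa, while 2-arachidonoylglycerol is made by the diacylglycerol lipases Dagla and Daglb and split by Mgll and Abhd6. In the gut, Cnr1 (the CB1 receptor) is known from enteric neurons, where it dampens transmitter release and motility, and Cnr2 (the CB2 receptor) from immune cells. In the liver, CB1 signalling is known for its link to fat synthesis on rich diets.

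Levels are normalised log2 signals of 1 probe per gene, the brightest in that tissue. Levels of different probes cannot be set against each other, so each gene was compared only with itself. A probe counted as well above background where the scanner software flagged it so. Between 48.4% and 55.88% of spots were well above background on the cecum arrays and between 46.41% and 51.69% on the liver arrays, and no spot was saturated. The number of arrays limits the precision. As a check of the tissue labels, the colonocyte genes Krt20 and Slc26a3 were well above background on 22 of 22 cecum and 0 of 24 liver arrays, and the hepatocyte gene Alb on 0 of 22 cecum and 24 of 24 liver arrays. The arrays lay on 6 slides, 3 per tissue, with every diet on each slide. Each diet took the same positions on every slide, so diet and position cannot be told apart, also within slides.

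Cnr1, Daglb and Abhd6 were the members with a diet difference that passed a call in the cecum, and their promoters are shown so that the genes concerned can be seen. The sequences are RefSeq windows of build GRCm38.p6, 300 bases from 250 before the transcript start to 50 after it, read 5′ to 3′ on the gene's strand, which is the plus strand for all 3 genes. Capitals mark exact matches, on either strand, to the GC box GGGCGG, the CCAAT box CCAAT, the TATA box TATAAA, the nuclear receptor half-site AGGTCA or the E-box CACGTG. The Cnr1 window is chr4:33924014-33924313 (the first of 3 RefSeq windows), the Daglb window chr5:143464243-143464542 and the Abhd6 window chr14:8002638-8002937 (the first of 2).
Cnr1: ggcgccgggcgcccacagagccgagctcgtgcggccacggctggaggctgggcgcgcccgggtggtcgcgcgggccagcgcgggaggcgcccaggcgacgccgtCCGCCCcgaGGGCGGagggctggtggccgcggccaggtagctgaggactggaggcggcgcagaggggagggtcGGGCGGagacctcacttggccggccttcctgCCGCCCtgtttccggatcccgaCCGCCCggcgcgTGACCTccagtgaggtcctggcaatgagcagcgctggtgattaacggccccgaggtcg
Daglb: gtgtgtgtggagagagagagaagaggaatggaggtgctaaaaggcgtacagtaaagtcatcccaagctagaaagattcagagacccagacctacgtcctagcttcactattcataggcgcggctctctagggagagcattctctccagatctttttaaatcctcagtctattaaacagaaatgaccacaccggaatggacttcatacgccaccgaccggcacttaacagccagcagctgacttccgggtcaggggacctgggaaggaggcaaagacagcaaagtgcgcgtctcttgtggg
Abhd6: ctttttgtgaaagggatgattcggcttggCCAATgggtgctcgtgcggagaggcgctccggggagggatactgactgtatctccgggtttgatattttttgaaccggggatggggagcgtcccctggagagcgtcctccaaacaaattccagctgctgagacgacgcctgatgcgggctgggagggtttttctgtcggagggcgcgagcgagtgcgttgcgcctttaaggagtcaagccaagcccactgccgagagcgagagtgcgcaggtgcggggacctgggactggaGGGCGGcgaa
The Cnr1 window held 5 GC boxes, at −146, −137, −73, −42 and −20 from the start, and 1 half-site at −8, and its GC content was 76.3%. The Daglb window held none of these motifs at a GC content of 51.0%. The Abhd6 window held a CCAAT box at −221 and a GC box at 40, with a GC content of 60.7%. Across all 32851 RefSeq windows of this length, 35.7% held a GC box, 37.4% a CCAAT box, 13.6% a TATA box, 16.3% a half-site and 7.15% an E-box, and the median GC content was 52.7%. A match describes the letters and does not show that a factor binds there.

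Across the cecum, 1 receptor, 1 synthesis enzyme and 1 breakdown enzyme moved with diet. Against HFD, Cnr1 fell on HFD + inulin, by a log2 difference between −3.02 and −1.47 depending on the background treatment and with 3 of the 6 HFD + inulin arrays not well above background. Cnr1 was also lower than on HFD on the ester diet and LFD, and passed fold and P there only under some alternatives. Daglb rose 1.60-fold on HFD + inulin and 1.58-fold on the ester diet, and Abhd6 rose 1.40-fold on the ester diet, each against HFD. The other 7 members gave no call between diets in the cecum. A gene was called by either of 2 rules. The first used the study's thresholds, a fold over 1.5 with an unadjusted limma P under 0.01, on the values normalised here. In each comparison with HFD it called more probes than the study reported, so the shares of all probes given here are not the study's. The second was a Benjamini-Hochberg adjusted limma P under 0.05 over all 55681 probes.

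In HFD + inulin against HFD, 2 of 10 members were called by fold and P, against 2.47% of all probes, and both of them (Cnr1 and Daglb) also after adjustment, against 1.58%. In HFD + inul PB against HFD, 1 of 10 was called by fold and P, against 4.69% of all probes, and 2 of 10 after adjustment, against 7.02%. LFD against HFD gave 0 of 10 by either rule, against 0.639% and 0%, with 1 member at an unadjusted P under 0.05, as were 2919 of 55681 probes. The median log2 difference of the 10 members was 0.05 for HFD + inulin, −0.03 for LFD and −0.04 for HFD + inul PB. These 3 comparisons share the HFD arrays.

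**Figure D1:**
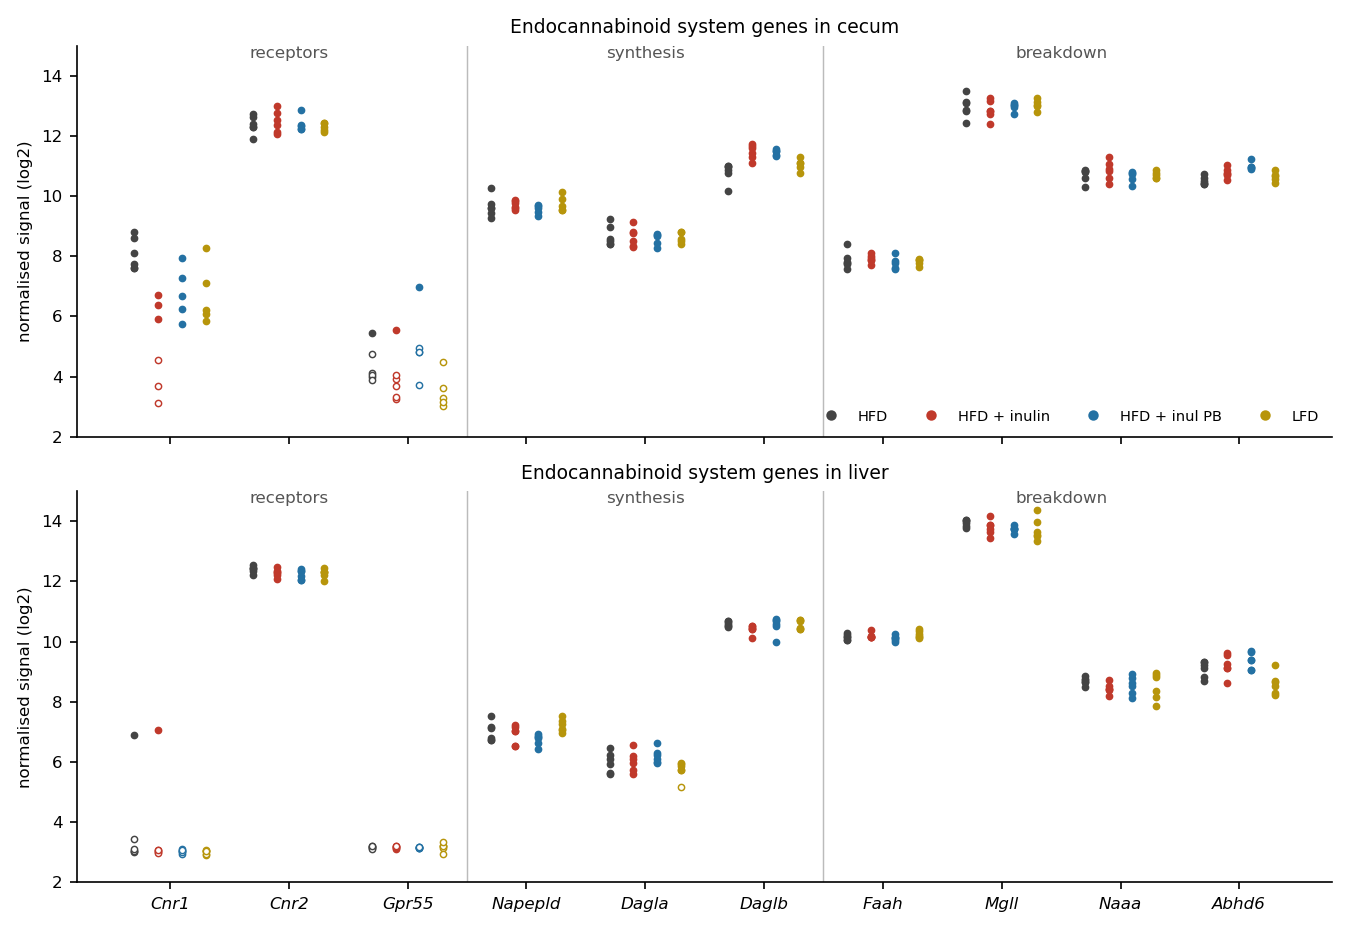
Normalised log2 signal (vertical axis) of the 10 endocannabinoid system genes by diet, with cecum and liver in separate panels and 1 point per array. Open points are spots not well above background. Cnr1 was not well above background on 3 of 22 cecum and 22 of 24 liver arrays, while the diet means of Cnr2 in the cecum lie between 12.29 and 12.47.

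Among the receptors, Cnr1 had the widest range of diet means of the 10 members in the cecum, 3.02. On HFD its level was 7.59 at the lowest, 7.92 at the median and 8.81 at the highest of 6 arrays (mean 8.08 ± 0.53, SD). On HFD + inulin it was 3.13, 5.23 and 6.71 (mean 5.06 ± 1.49, SD, n = 6), and 3 of these 6 arrays were not well above background. All 6 HFD + inulin arrays lay below all 6 HFD arrays.

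The 5 HFD + inul PB arrays read 7.93, 7.27, 6.24, 6.66 and 5.74 for Cnr1 (mean 6.77 ± 0.86, SD). The 5 LFD arrays read 6.22, 8.27, 7.11, 5.85 and 6.09 (mean 6.71 ± 0.99, SD). In each of these groups, 4 of 5 arrays lay below all HFD arrays and 1 lay within the HFD range.

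Against HFD, Cnr1 differed by −3.02 (8.13-fold) on HFD + inulin (SE 0.57, limma P = 3.92e-05, adjusted P = 0.0116), and a two-sided exact permutation test gave P = 0.00216, the smallest it can give with these numbers of arrays. Within slides 1, 2 and 3 the HFD + inulin difference was −2.07, −3.56 and −3.44. The size depended on the background treatment: it was −1.47 with normexp correction, −1.71 without background correction and −1.72 in the authors' processed values. With only the arrays of the 2 diets in the fit the adjusted P was 0.0880.

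The Cnr1 differences of the other diets from HFD were smaller. HFD + inul PB differed by −1.31 (SE 0.60, limma P = 0.0418, adjusted P = 0.226, exact permutation P = 0.0173). LFD differed by −1.37 (limma P = 0.0340, adjusted P = 0.839, exact permutation P = 0.0281). Within slides the difference was −0.60, −1.43 and −2.16 for HFD + inul PB and −0.96, −0.57 and −2.39 for LFD. Neither passed a call in the main fit. Under normexp both passed fold and P, at −0.81 for HFD + inul PB and −0.87 for LFD. The same held in the authors' processed values (−0.91 and −0.97), without background correction and with only the diets compared. The other processing alternatives gave no call, and with quantile normalisation the limma P was 0.0701 and 0.0541. Set directly against each other, HFD + inul PB was 1.71 above HFD + inulin for Cnr1 (limma P = 0.0101, adjusted P = 0.648, exact permutation P = 0.0649), and with slide as a block this difference, 1.63, passed fold and P.

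**Figure D2:**
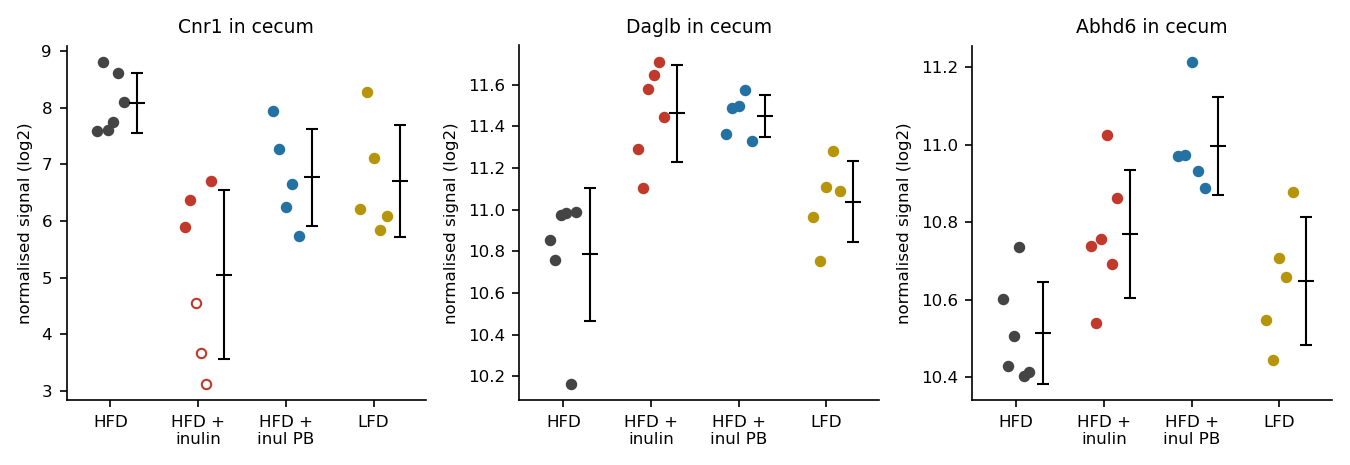
Normalised log2 signal (vertical axis) of Cnr1, Daglb and Abhd6 in the cecum by diet, with 1 point per array and a bar for the mean ± SD. All 6 HFD + inulin arrays are below the 6 HFD arrays for Cnr1, all 6 HFD + inulin and 5 HFD + inul PB arrays are above them for Daglb, and the 5 HFD + inul PB arrays are above them for Abhd6.

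The 5 genes whose level followed Cnr1 most closely over the 22 cecum arrays, among 12045 genes, were Nsg2 (Pearson r = 0.948), Stmn2 (0.925), Kif5a (0.909), Nrsn1 (0.906) and Vstm2l (0.887). The arrays share diets and RNA preparation, so the correlations are given as a description. Stmn2, a microtubule regulator of neurons, was also on the list of enteric neuron markers.

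Enteric neuron markers moved with Cnr1. The mean level of the 8 markers was 8.87 to 9.76 on HFD, 6.35 to 8.90 on HFD + inulin, 8.11 to 9.59 on LFD and 8.25 to 9.22 on the ester diet, and none of the 8 was below background on every cecum array. In HFD + inulin against HFD, 6 of 8 fell by fold and P and 5 after adjustment, with a median log2 difference of −1.89. Among all probes 2.47% passed fold and P in that comparison and 1.58% after adjustment. The intermediate filament Prph fell by 2.56 (adjusted P = 0.0302) and the receptor Ret fell by 1.78 (adjusted P = 0.0244), while Elavl4 (−0.31) and Snap25 (0.39) were not called. HFD + inul PB and LFD gave 0 of 8 against HFD, with medians of −0.77 and −0.89. Of 4 enteric glia markers, 2 fell by fold and P on HFD + inulin and 0 after adjustment. In bulk tissue, fewer cells of a type and less RNA per cell cannot be told apart, and the part of neuron content in the Cnr1 result was not tested.

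Adipocyte genes varied widely in the cecum. The mean of 8 adipocyte markers ran from 9.13 to 12.68 on HFD, 5.50 to 11.82 on HFD + inulin, 5.08 to 12.21 on LFD and 5.21 to 9.55 on the ester diet, and none of the 8 was below background on every cecum array. On HFD + inulin 0 of 8 were called against HFD, and on HFD + inul PB 6 of 8 fell by fold and P and 1 after adjustment. Smooth muscle markers gave 0 of 7 by either rule on each diet against HFD, as did enteroendocrine markers with 0 of 6. Of 7 T cell markers, 1 fell by fold and P on HFD + inulin, 1 on the ester diet and 2 on LFD. Among all probes 2.47% passed fold and P on HFD + inulin, 4.69% on the ester diet and 0.639% on LFD. After adjustment 1.58%, 7.02% and 0% of all probes passed in the same order. The part of fat in the cecum results was not tested.

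**Figure D3:**
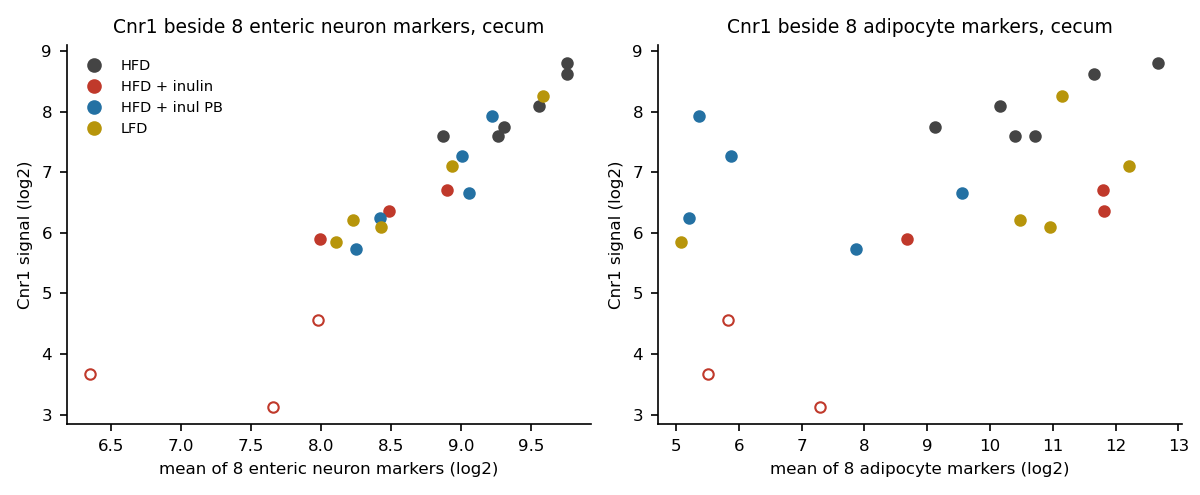
Cnr1 level (vertical axis, normalised log2 signal) on each of the 22 cecum arrays against the mean level of 8 enteric neuron markers and of 8 adipocyte markers (horizontal axes, normalised log2 signal), coloured by diet. The array with the lowest enteric neuron mean, 6.35, has a Cnr1 level of 3.68, and the array with the highest, 9.76, has 8.62, while the adipocyte mean spreads from 5.08 to 12.68.

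Cnr2 was well above background on all 46 arrays and gave no call. The probe was bright in both tissues, and since its sequence was not analysed here, whether it reads Cnr2 alone was not tested. Its cecum level was 12.36 ± 0.29 on HFD, 12.47 ± 0.36 on HFD + inulin, 12.29 ± 0.14 on LFD and 12.39 ± 0.26 on the ester diet (mean ± SD, n = 6, 6, 5 and 5). B cells are among the immune cells known for CB2. Of 7 B cell markers, 1 was lower than on HFD by fold and P on HFD + inulin, 3 on the ester diet and 2 on LFD. After adjustment 0, 3 and 0 were called in the same order. Among all probes 2.47%, 4.69% and 0.639% passed fold and P, and 1.58%, 7.02% and 0% passed after adjustment. Well above background on every cecum array were 3 of the 7 markers. The mean of the 7 markers was 5.93 to 7.18 on HFD and 5.41 to 6.78 over the other diets.

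Gpr55, a receptor for lysophospholipids that also responds to some cannabinoids, was dim. It was well above background on 3 of 22 cecum arrays, 1 on each of the HFD-based diets. The mean was 4.38 on HFD, 3.96 on HFD + inulin and 5.06 on the ester diet, and 3.51 on LFD, where 0 of 5 arrays measured it. With 2 of the 11 fiber arrays measuring the gene, these means are mostly background signal, and no fold is drawn from them. The limma adjusted P was 0.344 for the fiber diets together against LFD and 0.757 for the ester diet against HFD + inulin, where the sign of the difference changed between slides (2.31, 1.45 and −0.53).

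Among the synthesis enzymes, Daglb, a diacylglycerol lipase, rose on both fiber diets. On HFD it was 10.16 at the lowest, 10.91 at the median and 10.99 at the highest (mean 10.79 ± 0.32, SD, n = 6). On HFD + inulin it was 11.10, 11.51 and 11.71 (mean 11.46 ± 0.23, SD, n = 6). All 6 HFD + inulin arrays lay above the highest HFD array.

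The 5 HFD + inul PB arrays read 11.36, 11.49, 11.50, 11.57 and 11.33 for Daglb (mean 11.45 ± 0.10, SD), again all above HFD. The 5 LFD arrays read 10.97, 10.75, 11.11, 11.28 and 11.09 (mean 11.04 ± 0.20, SD) and overlapped both HFD and HFD + inulin.

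For Daglb the log2 difference from HFD was 0.68 on HFD + inulin (SE 0.13, limma P = 6.55e-05, adjusted P = 0.0151, exact permutation P = 0.00216) and 0.66 on HFD + inul PB (SE 0.14, limma P = 0.000135, adjusted P = 0.00735, exact permutation P = 0.00216). Within slides 1, 2 and 3 it was 0.39, 0.63 and 1.00 for HFD + inulin and 0.62, 0.52 and 0.88 for HFD + inul PB. HFD replicate 5, at 10.16, decided the fold: without it the folds were 1.46 and 1.45, under the minimum of 1.5, with adjusted P = 0.0139 and 0.00754. The same array had the lowest colonocyte marker mean on HFD, 15.13 against 15.82 to 15.96 on the other HFD arrays, and the highest goblet cell mean, 16.30 against 15.35 to 15.58. With only the 2 diets in the fit, the adjusted P for HFD + inulin was 0.132. HFD + inul PB and HFD + inulin did not differ detectably in Daglb, the 95% interval of their log2 difference running from −0.30 to 0.28 (exact permutation P = 0.929).

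The mean of the 2 fiber diets was 0.42 above LFD for Daglb (SE 0.13, limma adjusted P = 0.121), and without HFD replicate 5 in the shared fit the adjusted P was 0.0308. The genes most like Daglb over the 22 cecum arrays, among 12044 genes, were Adck2 (Pearson r = 0.945), Slc37a2 (0.944), Sat2 (0.944), Mal (0.925) and Mpp6 (0.920).

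Napepld, the phospholipase that frees N-acylethanolamines, and Dagla, the neuronal diacylglycerol lipase, gave no call in the cecum. Napepld was 9.64 ± 0.34 on HFD, 9.70 ± 0.13 on HFD + inulin, 9.75 ± 0.26 on LFD and 9.56 ± 0.15 on the ester diet (mean ± SD). Dagla was 8.68 ± 0.34, 8.64 ± 0.32, 8.61 ± 0.18 and 8.57 ± 0.20 in the same order. The means of each gene spanned less than the largest SD within a diet.

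Among the breakdown enzymes, Abhd6, a membrane serine hydrolase of 2-arachidonoylglycerol, rose on HFD + inul PB. On HFD it was 10.40 at the lowest, 10.47 at the median and 10.74 at the highest (mean 10.52 ± 0.13, SD, n = 6). The 5 HFD + inul PB arrays read 10.97, 10.97, 11.21, 10.93 and 10.89 (mean 11.00 ± 0.13, SD). All 5 lay above all HFD arrays.

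HFD + inulin was intermediate for Abhd6, at 10.54, 10.75 and 11.03 (mean 10.77 ± 0.16, SD, n = 6), and overlapped both groups. LFD read 10.55, 10.44, 10.71, 10.66 and 10.88 (mean 10.65 ± 0.16, SD, n = 5).

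The Abhd6 difference from HFD was 0.48 on HFD + inul PB (SE 0.09, limma P = 6.13e-05, adjusted P = 0.00467, exact permutation P = 0.00433), which stayed under the fold minimum at 1.40-fold. Within slides it was 0.46, 0.59 and 0.50. A second Abhd6 probe gave 0.45 (SE 0.11, limma adjusted P = 0.0195). For that probe HFD replicate 5 was low, at 10.07 against 10.45 to 10.64 on the other HFD arrays, which widens its difference. All 5 HFD + inul PB arrays lay above every HFD array with it. For the brighter probe the HFD + inulin difference was 0.25 (SE 0.09, limma P = 0.0109, adjusted P = 0.174, exact permutation P = 0.0173). HFD + inul PB was 0.23 above HFD + inulin (limma P = 0.0271, adjusted P = 0.736, exact permutation P = 0.0325), and the second probe gave 0.18 (limma adjusted P = 0.849). The fiber diets together were 0.23 above LFD (limma adjusted P = 0.224).

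The genes most like Abhd6 in the cecum were Slc38a9 (Pearson r = 0.886), Mycbpap (0.860), Igf2bp2 (0.860), Stk38 (0.859) and Mast2 (0.858). Epithelial markers moved on both fiber diets. Daglb was called on both against HFD, and Abhd6 on the ester diet only. Of 6 colonocyte markers, 2 rose by fold and P on HFD + inulin and 2 on the ester diet, and their mean level was 15.13 to 15.96 on HFD, 15.96 to 16.45 on HFD + inulin and 16.31 to 16.47 on the ester diet. Of 6 goblet cell markers, 3 fell by fold and P on HFD + inulin and 5 on the ester diet, from a mean of 15.35 to 16.30 on HFD to 14.77 to 15.20 and 14.59 to 14.88. Among all probes 2.47% passed fold and P on HFD + inulin and 4.69% on the ester diet. The part of epithelial content in the Daglb and Abhd6 results was not tested.

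Faah, Mgll and Naaa gave no call in the cecum. Faah, the main anandamide hydrolase, was 7.88 ± 0.28 on HFD, 7.92 ± 0.14 on HFD + inulin, 7.82 ± 0.12 on LFD and 7.78 ± 0.22 on the ester diet (mean ± SD). Mgll, the main 2-arachidonoylglycerol hydrolase, was 12.97 ± 0.35, 12.86 ± 0.31, 13.04 ± 0.16 and 12.97 ± 0.14 in the same order. Naaa, a lysosomal amidase that prefers palmitoylethanolamide, was 10.71 ± 0.22, 10.85 ± 0.32, 10.71 ± 0.12 and 10.63 ± 0.20.

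Inulin and its esters replaced the same share of carbohydrate by weight, so HFD + inul PB and HFD + inulin were compared, in 10 members and 2 tissues. Part of the ester weight is bound propionate and butyrate, so the amount of inulin itself was not matched. In the cecum 3 of 10 members had an unadjusted P under 0.05 (Cnr1, Gpr55 and Abhd6), as did 3543 of 55681 probes, and 0 of 10 passed either call, against 0.803% of all probes by fold and P and 0.0216% after adjustment. In the liver 0 of 10 reached an unadjusted P under 0.05, against 1275 probes, and 0 of 10 passed either call, against 0.198% and 0%. For Cnr2 in the cecum the 95% interval of the log2 difference was −0.43 to 0.28, and for Mgll it was −0.22 to 0.44.

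For the fiber diets together against LFD in the cecum, 3 of 10 members (Gpr55, Daglb and Abhd6) had an unadjusted P under 0.05, as did 6616 of 55681 probes, and 0 of 10 were called, against 1.49% of all probes by fold and P and 1.12% after adjustment.

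In the liver, 1 of the 10 genes passed a call in any of the 5 comparisons. HFD + inulin against HFD gave 0 of 10 by either call, against 0.399% of all probes by fold and P and 0% after adjustment. HFD + inul PB against HFD gave 0 of 10, against 0.289% and 0%, and LFD against HFD 0 of 10, against 0.717% and 0.0287%. The unadjusted P was under 0.05 for 0, 0 and 1 members, and for 2108, 1741 and 3767 probes. The fiber diets against LFD gave 1 of 10 by fold and P, against 0.774%, and 0 of 10 after adjustment, against 0.0593%. That gene was Abhd6.

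Liver Abhd6 was lowest on LFD, at 8.23, 8.59 and 9.21 (lowest, median and highest, mean 8.60 ± 0.36, SD, n = 6). HFD gave 8.69, 9.18 and 9.33 (mean 9.08 ± 0.27, SD, n = 6). HFD + inulin gave 8.63, 9.20 and 9.61 (mean 9.22 ± 0.36, SD, n = 6), and HFD + inul PB gave 9.07, 9.38 and 9.70 (mean 9.38 ± 0.27, SD, n = 6). HFD and HFD + inulin overlapped several LFD arrays, HFD + inul PB overlapped only the highest of them, and 7 of 12 fiber arrays lay above every LFD array.

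The 2 fiber diets were 0.70 above LFD for liver Abhd6 (SE 0.16, limma adjusted P = 0.122), a fold of 1.62. Within slides 1, 2 and 3 the difference was 0.69, 0.54 and 0.87. The second Abhd6 probe gave 0.37 (SE 0.11, limma adjusted P = 0.307), a fold of 1.29, and with it the call was lost. LFD was below HFD by a log2 difference of −0.48 (SE 0.18, limma P = 0.0139, adjusted P = 0.595, exact permutation P = 0.0238), and the second probe gave −0.17 (limma adjusted P = 0.839). Without LFD replicate 3, at 9.21, the brighter probe's difference became −0.60 with a fold of 1.52, which passed fold and P, and the fiber difference became 0.82 with adjusted P = 0.0367.

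**Figure D4:**
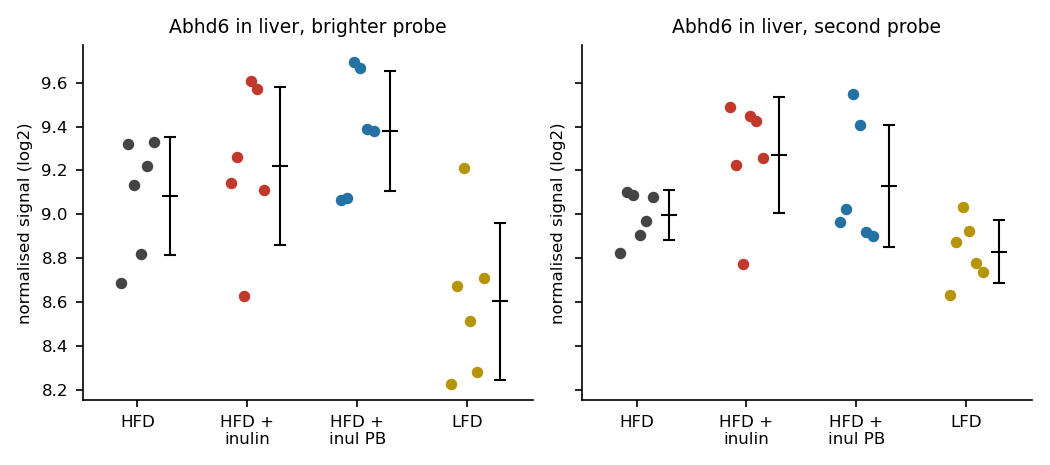
Normalised log2 signal (vertical axis) of the brighter and the second Abhd6 probe in the liver by diet, 1 point per array with a bar for the mean ± SD. LFD is lowest with both probes, 8.60 against 9.08 to 9.38 with the brighter probe and 8.83 against 9.27 on HFD + inulin, the highest, with the second.

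The genes most like Abhd6 over the 24 liver arrays, among 11362 genes, were Ankrd12 (Pearson r = 0.784), Naa60 (0.765), Mcrip2 (0.735), Etfb (0.734) and Slc35d1 (0.724). Of the marker lists in the liver, 4 of 7 T cell markers were lower on the fiber diets than on LFD by fold and P and 0 after adjustment. In that comparison 0.774% of all probes passed fold and P and 0.0593% after adjustment. Hepatocyte markers gave no call. The mean of the 7 T cell markers was 8.00 to 8.52 on LFD, 7.60 to 7.88 on HFD + inulin and 7.30 to 8.10 on the ester diet, and 1 of the 7 was below background on every liver array. The part of T cell content in the liver Abhd6 result was not tested.

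None of the synthesis enzymes was called in the liver. Napepld was 7.01 ± 0.32 on HFD, 6.92 ± 0.31 on HFD + inulin, 7.21 ± 0.21 on LFD and 6.75 ± 0.19 on the ester diet (mean ± SD, n = 6 each). The fiber diets together were apart from LFD by −0.37 (limma adjusted P = 0.462). Dagla was 5.99 ± 0.34, 6.03 ± 0.34, 5.73 ± 0.29 and 6.21 ± 0.25 in the same order, and the fiber diets were apart from LFD by 0.38 (limma adjusted P = 0.555), or 0.12 in the authors' processed values. Daglb was 10.60 ± 0.09, 10.40 ± 0.15, 10.57 ± 0.16 and 10.54 ± 0.29.

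The other liver members gave no call. Faah was 10.16 ± 0.10 on HFD, 10.20 ± 0.09 on HFD + inulin, 10.25 ± 0.11 on LFD and 10.12 ± 0.10 on the ester diet. Mgll was 13.94 ± 0.12, 13.80 ± 0.25, 13.73 ± 0.38 and 13.73 ± 0.10, and Naaa 8.69 ± 0.13, 8.45 ± 0.18, 8.51 ± 0.45 and 8.55 ± 0.30. For Daglb and Naaa on HFD + inulin and Mgll on HFD + inul PB, all lower than HFD, the exact permutation P was 0.0108, 0.0238 and 0.00866, while the limma P was 0.0867, 0.150 and 0.136. Over both tissues, 13 of 80 such exact tests of a member between a pair of diets gave P under 0.05. These tests share diet groups, and the exact tests were not run over all probes, so the count has no share to be set against.

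Among the liver receptors, Cnr2 was 12.40 ± 0.12, 12.29 ± 0.14, 12.27 ± 0.15 and 12.23 ± 0.17 in the same order of diets. Gpr55 was well above background on 0 of 24 arrays. Cnr1 was well above background on 2 of 24, HFD replicate 3 at 6.89 and HFD + inulin replicate 1 at 7.05, while the other 22 arrays read 2.91 to 3.43.

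To set the tissues side by side, all 46 arrays were normalised together and the same probe was compared in both. All 10 members differed between cecum and liver after adjustment, as did 58.7% of all probes. Each slide held 1 tissue, so slide and tissue cannot be told apart.

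Among receptors, Cnr1 was higher in cecum on HFD + inul PB and LFD, at means of 6.65 and 6.63, with 5 of 5 arrays measuring it on each. No liver array of these 2 diets measured Cnr1. Its liver means of 3.04 and 2.98, with the scanner's background correction, are background signal, so no fold is drawn. On HFD, 6 of 6 cecum arrays measured Cnr1, at 7.56 to 8.73, and 1 of 6 liver arrays, at 6.79. On HFD + inulin, 3 of 6 cecum arrays measured it, at 5.84 to 6.57, and 1 of 6 liver arrays, at 6.90. Gpr55 was measured on 3 of 22 cecum and 0 of 24 liver arrays, and no fold is drawn from it. Cnr2 was close in both, at 12.21 in cecum and 12.48 in liver (−0.28, adjusted P = 0.000280), and its direction turned to 0.08 in the authors' processed values. For synthesis, Napepld was 4.73-fold and Dagla 4.55-fold higher in cecum, and Daglb differed by 0.27 (adjusted P = 0.000215), or by 0.07 with adjusted P = 0.341 after scaling to the 75th percentile. For breakdown, Faah was 6.80-fold and Mgll 2.26-fold higher in liver, while Naaa was 3.39-fold and Abhd6 2.38-fold higher in cecum.

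**Figure D5:**
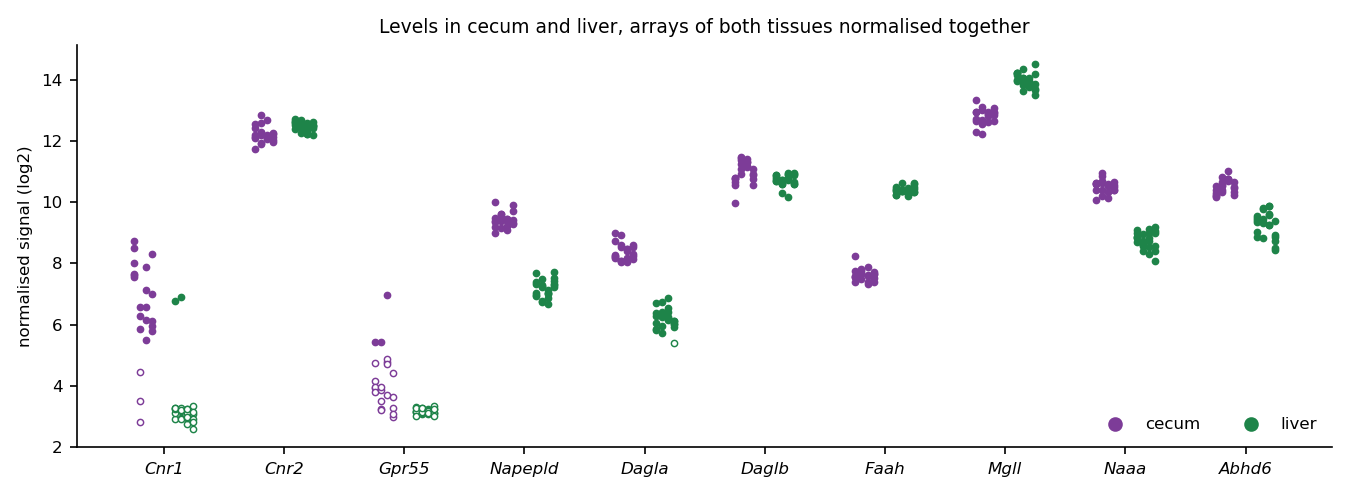
Normalised log2 signal (both tissues normalised together) of the 10 members in cecum and liver, 1 point per array. Faah is higher in liver (10.39 against 7.63) and Napepld and Dagla in cecum (9.42 against 7.18 and 8.38 against 6.19), while Cnr2 is close in both (12.21 and 12.48).

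A diet response that differed between the tissues was called for Daglb. Its HFD + inulin response, cecum minus liver, was 0.86 (SE 0.17, adjusted P = 0.0134), where 0.277% of all probes passed. Its HFD + inul PB response, cecum minus liver, was 0.73 (SE 0.18, adjusted P = 0.0187), where 2.01% passed. Daglb rose in the cecum on both diets, while its liver mean, normalised within the liver, was lower than on HFD. That mean was 10.60 on HFD, 10.40 on HFD + inulin and 10.54 on the ester diet. With each array left out, the HFD + inulin term ran from 0.73 to 0.93 and the HFD + inul PB term from 0.61 to 0.78. With only the diets compared in the fit, the HFD + inulin term had adjusted P = 0.0569. For LFD against HFD, 0.0359% of all probes passed and 0 of 10 members did. For Cnr1 on HFD + inulin the adjusted P was 0.120. Its liver side rested on a probe not well above background on 22 of 24 arrays, so the size of this term is set by background. It passed without liver HFD replicate 3, 1 of the 2 liver arrays that measured the gene (adjusted P = 0.0239), and with normexp (adjusted P = 0.0299).

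Of 42 further genes of the pathway, 41 were on the array, and 31 were well above background on every cecum array and 23 on every liver array. In the cecum, 1 was higher and 4 lower by fold and P on HFD + inulin against HFD, 0 and 1 on LFD, and 3 and 5 on the ester diet, where 2.47%, 0.639% and 4.69% of all probes passed. Ces1f, a carboxylesterase, rose on both fiber diets, by 0.82 with inulin (adjusted P = 0.000454) and by 1.00 with the esters (adjusted P = 2.92e-05). Alox5, which oxidises arachidonic acid, rose by 0.82 on the ester diet (adjusted P = 0.00119), where it was 0.74 above HFD + inulin (adjusted P = 0.0725).

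Among the lipid binding proteins of the cecum, Fabp7 fell by 1.94 with inulin (adjusted P = 0.0221) and fell by 2.14 with the esters (adjusted P = 0.00519), with 9 of 22 arrays well above background. Fabp7 is known from glia. Fabp4, an adipocyte protein, fell by 3.05 on the ester diet (adjusted P = 0.0400), and Fabp5 fell by 0.61 and 0.67 on the fiber diets by fold and P. The receptor Gpr18, with 8 of 22 arrays well above background, fell by fold and P. Its fall was 0.96 with inulin (adjusted P = 0.135) and 1.26 with the esters (adjusted P = 0.0253). The lymphocyte phosphatase Ptpn22 also fell by fold and P. Its fall was 0.70 on HFD + inulin (adjusted P = 0.0754), 0.73 on LFD (adjusted P = 0.781) and 0.77 on the ester diet (adjusted P = 0.0285). Plaat1, an acyltransferase, rose by 1.69 on HFD + inul PB by fold and P, with 9 of 22 arrays well above background. Trpa1, an irritant-gated channel, was lower on the ester diet than on HFD + inulin by fold and P (log2 difference −0.78, adjusted P = 0.478).

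In the liver, 0 of the 41 were called on HFD + inulin against HFD and 1 on HFD + inul PB, where Fabp2 fell by 0.61 (adjusted P = 0.454). On LFD, 3 were higher and 2 lower than on HFD by fold and P, and 0 were called after adjustment. Of all probes, 0.399% passed on HFD + inulin, 0.289% on the ester diet and 0.717% on LFD. On LFD, Fabp5 rose by 2.75 (adjusted P = 0.0618), Alox12 by 0.81 (adjusted P = 0.485) and the phospholipase C Plcb4 by 0.71 (adjusted P = 0.286). The lipid-sensing receptor Pparg fell by 0.76 (adjusted P = 0.221) and the carboxylesterase Ces1g fell by 0.80 (adjusted P = 0.408). Fabp5 was also lower on the fiber diets than on LFD (log2 difference −2.44, adjusted P = 0.0460), as was Ptpn22 by fold and P (−0.60).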

How the data were processed

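RNA was measured on 46 one-colour Agilent arrays of mouse cecum and liver, grouped by tissue and diet from the labels. The authors deposited scanner output of Agilent Feature Extraction 10.7.3.1, from which the processed signal intensity was used; it is background corrected by the scanner software. They also deposited a table of log2 values, normalised by cyclic loess, whose background treatment is not given in the sources used here; it served as an alternative.

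After log2 of the processed signal, control and outlier spots were left out, arrays were normalised by cyclic loess (span 0.7) within each tissue, spots of a probe were averaged, and all 4 diets of a tissue were fitted with limma 3.58.1 in R 4.3.3. Fold over 1.5 with P under 0.01 followed the study's criteria. Adjusted P values are Benjamini-Hochberg over 55681 probes. Single values were also given exact permutation tests. Scripts were tested on simulated data. As the labels tell samples of a diet apart without naming mice, P values measure the spread between these arrays.

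Probes were named from their accessions through RefSeq (GRCm38.p6 tables), which gave 27509 probes with 1 symbol. RefSeq has a predicted transcript overlapping Abhd6, Mgll, Dagla, Napepld and Gpr55, and no probe sequences were used, so signal was not assigned between them. Rarres3 among the pathway genes and Cd68 among the macrophage markers had no match. Where no array of a group measured a member's probe above background, levels are given and no fold is drawn. All 10 members are described in both tissues, and a log2 difference is printed where the limma P was under 0.05, otherwise levels. The members, the pathway genes and the marker lists were chosen with earlier results of these data known. Alternatives were 75th percentile and quantile scaling, normexp (offset 50) and no background correction, the authors' values, outlier spots kept, probes well above background only, slide block, replicate block, only the diets compared, the second brightest probe, and each array left out. Python 3.11.15 with matplotlib 3.10.9 drew the plots. The number of columns of sample values not used was 0.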

Additional observations from a re-analysis of the deposited data

Results flagged for a closer look

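In 66 groups of arrays whose member was measured on every array, 6 had 1 array standing far from the rest, with a gap to its nearest neighbour above 0.71 of the range for 5 arrays or 0.625 for 6. Chance alone gives this in about 1 group of 20. In the cecum, HFD + inul PB replicate 3 was high for Cnr2 at 12.84 (nearest 12.35) and for Abhd6 at 11.21 (nearest 10.97). HFD replicate 5 was low for Daglb at 10.16 (nearest 10.76), and the Daglb folds without it stand in the report. In the liver, Daglb was low in HFD + inulin replicate 5 at 10.12 (nearest 10.41) and in HFD + inul PB replicate 3 at 9.99 (nearest 10.51), and Faah was high in HFD + inulin replicate 2 at 10.39 (nearest 10.19).

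The diet response of Daglb differed between cecum and liver by an interaction term, by 0.73 for the ester diet, HFD + inul PB (limma adjusted P = 0.0187), and by 0.86 for HFD + inulin (limma adjusted P = 0.0134).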

How the results depend on the processing

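Of the counts of called members, 232 stayed within 1.5 times their value under the alternatives and 17 moved, beside 584 and 14 with an array left out. Those that stayed include counts of 0 that remained 0. With the second brightest probe only Mgll and Abhd6 could change, since the other members have a single probe and repeat the main fit. The number that stayed is therefore not a measure of robustness. Cnr1 in the cecum accounts for most of the moves. It entered the fold and P call for HFD + inul PB against HFD + inulin, so that 0 became 1, with 75th percentile scaling, only probes well above background, quantile normalisation, slide block and replicate block. It also entered it with the authors' values, no background correction, normexp and only the diets compared for HFD + inul PB against HFD (1 became 2) and for LFD against HFD (0 became 1). With only the diets compared, the adjusted calls for HFD + inulin against HFD went from 2 to 0 in the cecum. The liver call of the fiber diets against LFD went from 1 to 0 with normexp and with the second brightest probe. The members with a diet response differing between tissues went from 1 to 2 with normexp. Single values moved past the P threshold in 18 cases and turned sign in 1, Cnr2 between tissues, at 0.0777 with the authors' values, and 287 kept their side.

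With each array left out, the fold and P counts ranged in the cecum from 1 to 2 for HFD + inulin, 0 to 1 for HFD + inul PB and 0 to 1 for LFD against HFD, and from 0 to 1 for HFD + inul PB against HFD + inulin. The last was gained by Cnr1 without HFD + inul PB replicate 5, HFD + inulin replicate 1, 2 or 6 or LFD replicate 2, and by Gpr55 without HFD + inul PB replicate 4 or HFD + inulin replicate 5, and that of LFD by Cnr1 without LFD replicate 2. Adjusted counts of the fiber diets against LFD ranged from 0 to 1 in both tissues, fold and P counts of LFD against HFD in the liver from 0 to 1, and the differing diet responses from 1 to 2.

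Cnr1 on HFD + inulin ran from −3.16 to −1.47 over 11 alternatives with limma adjusted P from 0.00443 to 0.0880. Abhd6 on HFD + inul PB ran from 0.40 to 0.54 with adjusted P from 0.00151 to 0.0196. The 0.00443 came with only probes well above background, a set of probes measured on every array of at least 1 diet. Cnr1 entered that set through the other diets, with 3 of 6 HFD + inulin arrays measuring it. Its difference stayed at −3.02 there, so that P gives no added support. Residuals of same-numbered arrays had a mean correlation of 0.069 in the cecum, against −0.014 for other pairs, and 0.110 against −0.022 in the liver. Single same-numbered pairs ran from −0.162 to 0.252 in the cecum and −0.005 to 0.278 in the liver. The labels do not name mice, and the number was not taken as a pairing. Cecum replicate 4 lay on slide 2 for HFD and HFD + inulin and on slide 3 for HFD + inul PB and LFD. The cecum replicate block therefore joined arrays of different slides, which limits it as a check. The replicate block changed the 1 cecum count above, where Cnr1 was 1.88 higher on HFD + inul PB (limma adjusted P = 0.412), and no other count of calls. Probes near background, such as Cnr1 on HFD + inulin and Gpr55, have sizes that depend on background correction.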
